A study of Mus musculus with 48 samples.

Results

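LXRα, encoded by Nr1h3, was studied in livers of mice in which both copies or 1 copy of the gene carried a dominant negative missense change, W441R. Samples were chosen by their genotype label alone: 8 livers labelled DN:HOM (2 mutated copies) were set against 8 labelled DN:HET (1 mutated and 1 normal copy), 16 of the 48 livers of the series. All mice were male C57Bl/6J fed a western diet for 8 weeks, from about 8 to 16 weeks of age. The knock-in was germline, made by genome editing, so every cell type carried it, and mice came from crosses of heterozygous parents. The study's methods also describe a few mice on this diet killed earlier, and the labels do not separate them. A figure legend of the study places the sequenced livers after killing at 16 weeks. Further groups of 8 livers each are given only for reference: wild-type mice of the same colony (DN:WT), and mice lacking 1 copy (KO:HET) or both copies (KO:HOM) of the gene, which were kept as a separate colony at another institute under the same diet and duration. The question was which changes of the homozygous liver are absent when a normal allele remains.

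LXRα is a nuclear receptor that is activated by oxysterols and binds DNA with RXR as its partner. In the liver it drives fatty acid synthesis, largely through Srebf1, and the secretion of sterols into bile through the Abcg5 and Abcg8 transporter. In macrophages it promotes cholesterol efflux, and it is one of the factors that give resident Kupffer cells their identity. Without ligand it holds corepressors at its target genes. A receptor that cannot release them can therefore repress genes that a missing receptor merely fails to activate.

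The mutated codon is shown because it is the only difference in design between the alleles. Codon 441 of Nr1h3 (TGG, tryptophan, in capitals) lies at chr2:91014696-91014698 of GRCm39 on the minus strand, in exon 10, the last coding exon, with 4 codons between it and the stop codon that ends the stretch printed here (chr2:91014681-91014728, reference sequence, coding strand 5′ to 3′).
Nr1h3 codon 441: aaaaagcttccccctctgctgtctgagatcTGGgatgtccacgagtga

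Nr1h3 (chr2:91014394-91033417, GRCm39) was expressed in every liver. Its level ran from 86.5 to 100.1 counts per 1000000 reads (CPM) with a median of 92.7 in the 8 DN:HET livers, from 69.0 to 78.5 with a median of 72.8 in 7 DN:HOM livers, and was 86.9 in DN:HOM animal 12. The 7 livers all lay below the heterozygous range and animal 12 lay inside it. The exact permutation test (two-sided) on log2 CPM gave p = 0.000311 for 8 against 8 livers and, without animal 12, p = 0.000155, the smallest that these groups allow. The difference was small, a log2 fold change of -0.31 ± 0.05 (SE) without animal 12, and it was 0.03 when libraries were scaled by their totals alone. Gene counts do not see a missense change, so this level does not check the genotype labels. The lncRNA gene Gm13783, which overlaps Nr1h3 on its own strand, was at 0.287 CPM or less in all 16 livers. Acp2, whose start overlaps that of Nr1h3 on the other strand, gave a log2 fold change of -0.04 ± 0.09 (adjusted p = 0.71).

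Several livers stood apart before any test. On the first principal component (68.3% of the variance of 12160 genes) 7 DN:HOM livers lay between 34.8 and 62.2, while animal 12, also labelled DN:HOM, lay at -55.8 beside the heterozygous livers (-55.3 to -8.7). The 2nd component (11.6%) separated DN:HET animals 4 (-44.2) and 22 (-46.6) from the other 6 DN:HET livers (-18.4 to 20.5). DN:WT animal 10 stood apart in the opposite way to animal 12: its Clec4f level was 0.203 CPM, against 60.2 to 108.0 in the 7 other DN:WT livers. Labels were kept for all of these. Whether the labels of animals 10 and 12 were exchanged cannot be told from gene counts and was not tested, and every value over 16 livers holds only if they are right. The study's own source table left out both animals without a stated reason. Counts over lists are given with and without animal 12, and a single fold or log2 value is without it unless 16 livers are named. Reads assigned to genes ran from 14147237 to 16805906 over the 16 livers. One KO:HET and 1 KO:HOM library held far fewer, 5332897 and 5376226. The share of unmapped reads was 4.84 to 15.05% in DN:HET, 2.74 to 4.94% in the 7 DN:HOM livers and 7.18% in animal 12, and its part in the results was not tested. Labels give no cage, litter or library batch. The study describes its mice as divided into 2 cohorts whose results were pooled, and no label ties a liver to a cohort, so its part in the results was not tested.

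**Figure D1:**
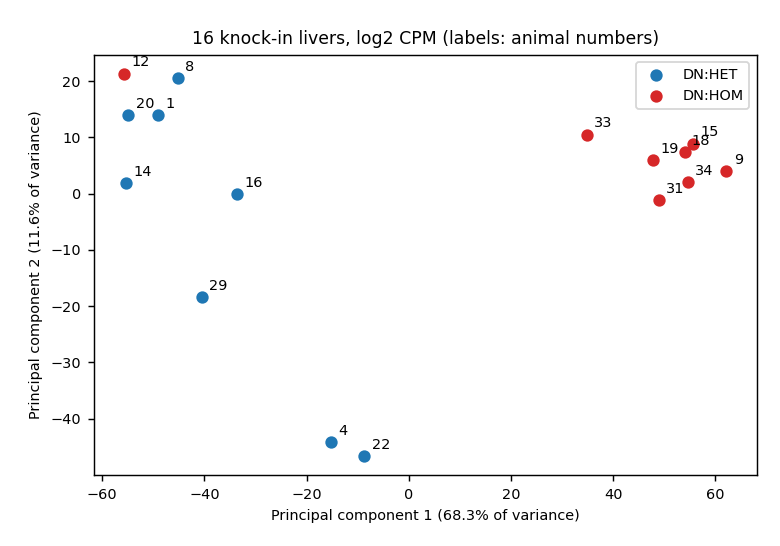
Principal components of log2 CPM in the 8 DN:HET (blue) and 8 DN:HOM (red) livers, labelled with animal numbers and with the share of variance on each axis. Animal 12 sits among the heterozygous livers on the first component, and DN:HET animals 4 and 22 sit apart on the other.

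Homozygous and heterozygous livers differed in a large part of the transcriptome. Over all 16 livers 6343 of 14535 genes passed edgeR's quasi-likelihood test at an adjusted p under 0.05 (43.6%; 3372 or 23.2% higher and 2971 or 20.4% lower in DN:HOM), with 9.14% of all tested genes higher and 3.47% lower by at least 2-fold. Without animal 12, 8054 of 14885 genes passed (54.1%; 4215 or 28.3% higher, 3839 or 25.8% lower), 1769 of them (11.9%) at least 2-fold higher and 802 (5.39%) at least 2-fold lower. All 7 DN:HOM livers lay outside the range of all 8 DN:HET livers for 3346 genes (22.5%; 12.8% above and 9.71% below). With animal 12 included the groups were apart for 160 genes (1.1%; 0.777% above and 0.323% below). These are the backgrounds against which the counts below stand. Of the genes named here 162 could be tested over 16 livers, and 14 of them passed without animal 12 but not with it: Scd1, Mogat1, Cidea, Cyp7a1, Apoa4, Pltp, Ccl2, Alb, Gm32468, Fdps, Hba-a1, Hbb-bs, Kdr and Lyve1. DN:HOM libraries had larger TMM scaling factors (1.19 to 1.33, animal 12 at 0.926) than DN:HET libraries (0.922 to 1.12). The median log2 fold change of all genes was 0.01 over 16 livers and 0.02 without animal 12, and with library totals alone it was 0.30 and 0.36, so small changes depend on the scaling. The split of calls moved with it, from 3372 higher and 2971 lower to 7094 and 1248 over 16 livers, and from 4215 and 3839 to 8370 and 1544 without animal 12.

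The direct targets of LXRα were split. Of 18 listed targets, 13 fell and 4 rose in DN:HOM without animal 12 (10 and 4 over 16 livers). Abcg5 and Abcg8, which form the sterol transporter of the bile canaliculus, are a head-to-head pair on chromosome 17. Abcg5 (chr17:84964851-84990494) was at 187 to 283 CPM (median 258) in DN:HET and at 44.2 to 83.4 (median 54.4) in 7 DN:HOM livers, with animal 12 at 366. Abcg8 (chr17:84983730-85007765) was at 163 to 267 CPM in DN:HET and 38.1 to 63.2 in the 7. Neither pair of ranges overlapped without animal 12. The log2 fold changes were -2.02 ± 0.14 for Abcg5 (adjusted p = 7.6e-09) and -2.17 ± 0.14 for Abcg8 (2.8e-09), and -1.30 (adjusted p = 0.013) and -1.46 (0.0066) over 16 livers. For this pair DN:HET was also lower than DN:WT, without overlap for Abcg5 only. Abcg5 was at 349 to 481 CPM in the 7 DN:WT livers other than animal 10, above every DN:HET liver. Its log2 fold change for DN:HET against DN:WT was -0.76 (adjusted p = 0.005). Abcg8 was at 248 to 402 CPM in those DN:WT livers, a range that overlapped that of DN:HET, and gave -0.56 (adjusted p = 0.041). Both calls were made without animals 10 and 12, and no gene passed edgeR's test when those 2 animals were kept. At the background of 0.0594% of genes lower in DN:HET, they were 2 of the 18 targets, and Abcg1 was the 1 that was higher (log2 0.82). Without DN:HET animals 4 and 22 as well Abcg5 still passed (-0.69, adjusted p = 0.03), whereas Abcg8 (-0.50, adjusted p = 0.28) and Abcg1 (0.40, adjusted p = 0.37) did not.

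Srebf1, the transcription factor that carries the lipogenic action of LXRα, showed a larger step. It was at 371 to 1017 CPM (median 750) in DN:HET, 78.2 to 132.5 (median 110.2) in 7 DN:HOM livers and 812 in animal 12. The groups did not overlap without animal 12, and the fall was 6.57-fold (log2 -2.72 ± 0.19, adjusted p = 7.6e-09; 3.62-fold over 16 livers, adjusted p = 0.0041). Abca1, the cholesterol efflux pump, was at 205 to 305 CPM in DN:HET and 163 to 238 in the 7 DN:HOM livers, overlapping ranges with a log2 fold change of -0.31 ± 0.09 (adjusted p = 0.0065) that became 0.03 with library totals alone. The 4 targets that rose were Lpl, lipoprotein lipase (log2 1.85 ± 0.19), Arl4c (1.59 ± 0.26), Abcg1, a sterol exporter of macrophages (0.95 ± 0.22), and Mylip, a ubiquitin ligase (0.64 ± 0.11). Lpl was at 35.5 to 103.8 CPM in DN:HET and 171 to 258 in the 7 DN:HOM livers. Among 14 partners and cofactors of the receptor 5 fell and 1 rose (4 and 1 over 16 livers), all by little: Rxra gave -0.49 ± 0.12 and the corepressor Ncor1 -0.44 ± 0.07, and with library totals alone none of the 14 was lower and 7 were higher (6 over 16 livers).

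The genes of fatty acid synthesis fell almost as a whole. Without animal 12, 17 of 18 were lower and 1 was higher (median log2 fold change -2.001), and over 16 livers 15 were lower and 1 higher (median -1.44). Scd1, the desaturase that makes oleate and the most abundant of them, was at 13774 to 44892 CPM (median 30839) in DN:HET, at 355 to 1106 (median 798) in 7 DN:HOM livers and at 42417 in animal 12. The ranges were far apart without animal 12. The fall was 37.2-fold without animal 12 (log2 -5.22 ± 0.34, adjusted p = 3.8e-09), and with it the change did not pass (-2.30, adjusted p = 0.058). Fasn, fatty acid synthase, was at 357 to 2226 CPM in DN:HET and 45.9 to 82.4 in the 7, a 20.5-fold fall (adjusted p = 7.5e-08). Over 16 livers Fasn fell 4.92-fold (adjusted p = 0.029), a call that was lost when any 1 of 6 DN:HOM livers was left out. Thrsp, a regulator of lipogenesis, fell 30.4-fold (6.29-fold over 16 livers), Elovl6, an elongase, 7.95-fold (4.01-fold) and Acacb, an acetyl-CoA carboxylase, 7.47-fold (3.56-fold). The single member that rose was Scd2, a desaturase that adult hepatocytes express at a low level, at 7.81 to 17.6 CPM in DN:HET and 28.6 to 37.1 in the 7. It is named as the exception, after its values were seen. Between DN:HET and DN:WT none of the 18 passed by edgeR or DESeq2, with a median log2 fold change of -0.24 by edgeR for 8 and 8 livers and -0.42 without animals 10 and 12. In edgeR's test 0 and 9 of the 18 had an unadjusted p under 0.05 in these comparisons.

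Storage of lipid followed. Of 11 tested genes of triacylglycerol synthesis 8 fell (7 over 16 livers). Gpam, the first acyltransferase of the pathway, fell 3.58-fold (2.48-fold over 16 livers), Agpat2 2.14-fold and Dgat2, which adds the last acyl chain, 1.91-fold (DN:HET 279 to 495 CPM, 7 DN:HOM livers 167 to 264). Pnpla3 and Mogat1 were near 1 CPM or below in the 7 livers and fell by more than 3 on the log2 scale. Among 18 lipid droplet and steatosis genes 10 fell and 3 rose, Plin3, Hsd17b13 and Fabp4. Over 16 livers 6 fell and 3 rose, and with library totals alone and without animal 12 the counts were 8 and 5. Cidea, a droplet fusion protein, was at 1.84 to 23.5 CPM in DN:HET and at most 0.299 in the 7, G0s2, an inhibitor of lipolysis, fell 5.46-fold and Fitm1 4.15-fold. The largest fall of any gene named here was that of Cfd, the complement protease adipsin (chr10:79726668-79728496). Its level was 64.6 to 225 CPM in DN:HET, 0 to 0.383 in the 7 DN:HOM livers and 110.2 in animal 12 (log2 -9.82 ± 0.42, adjusted p = 4.4e-11; -3.51, adjusted p = 0.033 over 16 livers, lost when any 1 of 6 livers was left out). With so few reads in the 7 livers the size of that fold is set by counting noise.

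Cholesterol synthesis and uptake fell in parallel. Of 25 genes 21 were lower and none was higher without animal 12 (median -0.94), and 18 were lower over 16 livers (median -0.70). Insig1, which retains SREBP in the endoplasmic reticulum and is itself an SREBP target, fell 4.19-fold (DN:HET 133 to 356 CPM, 7 DN:HOM livers 53.5 to 74.4). Tm7sf2 fell 2.86-fold and Hmgcs1, an early enzyme of the pathway, 2.17-fold. Sqle gave -0.68 ± 0.32 and did not pass (adjusted p = 0.085). One gene of the 25, Fdps, was lower in DN:HET than in DN:WT without animals 10 and 12 (log2 -1.13, adjusted p = 0.034), and it did not pass without animals 4 and 22 as well (-1.12, adjusted p = 0.12). The promoters of 3 genes that moved together are printed from RefSeq's table (GRCm38.p6, 250 bases before to 50 after the start, 5′ to 3′ along the gene), because the same short letters recur in them: capitals mark CCAAT, or its reverse complement ATTGG, and in Hmgcs1 also the single match to TCACNCCAC, a form of the sterol response element. Hmgcs1 lies at chr13:119690101-119690400 (plus), Fasn at chr11:120824498-120824797 (minus) and Srebf1 at chr11:60222532-60222831 (minus).
Hmgcs1: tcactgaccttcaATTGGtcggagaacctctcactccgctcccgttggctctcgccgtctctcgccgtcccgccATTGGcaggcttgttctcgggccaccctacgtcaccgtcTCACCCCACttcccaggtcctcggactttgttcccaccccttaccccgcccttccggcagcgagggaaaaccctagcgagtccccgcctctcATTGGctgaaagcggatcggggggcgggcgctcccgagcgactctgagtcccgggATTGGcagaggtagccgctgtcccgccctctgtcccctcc
Fasn: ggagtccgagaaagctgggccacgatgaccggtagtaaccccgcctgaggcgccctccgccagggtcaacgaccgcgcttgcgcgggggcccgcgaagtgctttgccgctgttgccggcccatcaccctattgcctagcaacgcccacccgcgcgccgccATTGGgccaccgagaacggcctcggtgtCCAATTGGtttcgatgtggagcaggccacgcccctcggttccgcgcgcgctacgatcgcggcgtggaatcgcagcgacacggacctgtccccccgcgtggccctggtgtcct
Srebf1: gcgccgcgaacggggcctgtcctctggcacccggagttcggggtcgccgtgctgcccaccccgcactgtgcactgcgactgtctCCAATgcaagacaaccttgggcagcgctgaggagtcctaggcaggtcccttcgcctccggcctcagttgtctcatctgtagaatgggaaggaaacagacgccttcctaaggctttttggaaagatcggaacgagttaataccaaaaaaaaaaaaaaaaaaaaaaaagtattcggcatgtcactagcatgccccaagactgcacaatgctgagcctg

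Both strands were searched. CCAAT was present in 15 of the 17 cholesterol genes with a promoter in the table (88.2%) and in 9 of the 15 fatty acid synthesis genes (60%), against 10248 of all 27025 promoters (37.9%). TCACNCCAC was present in 1 of 17 and 1 of 15, against 330 of all promoters (1.22%), and a direct repeat of AGGTCA spaced by 4 bases, the form LXR binds, was in none of the 2 lists and in 3 promoters in all. Matches overlapped in Fasn, where CCAATTGG holds the letters on both strands. The share with CCAAT was also high in some lists that did not fall as a whole. It was 8 of 8 genes of cholesterol ester storage, 10 of 12 proliferation genes and 5 of 6 MHC class II genes (83.3% each for the last pair). Other such lists were low, at 5 of 16 stellate and fibrosis genes (31.2%) and 1 of 17 acute phase genes (5.88%). The bile acid list, which fell, had 5 of 17 (29.4%). Any tie between the letters and the falls was not tested. These are descriptions of letters in a 300-base window at a single listed start of each gene. Other starts were not searched, and gene counts do not separate transcripts by their start.

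Bile acid and lipoprotein genes followed the same direction. Of 21 tested genes of bile acid synthesis and transport 16 fell and 3 rose (15 and 3 over 16 livers). Cyp8b1, which makes cholic acid, was at 234 to 575 CPM in DN:HET and 26.99 to 165 in the 7 DN:HOM livers, without overlap (6.78-fold lower, adjusted p = 5.3e-06; 4.13-fold over 16 livers, adjusted p = 0.0038). Slc10a1, the uptake carrier for bile acids, fell 3.78-fold, Slco1a1 9.60-fold and Akr1d1, a sterol reductase, 3.43-fold. Cyp7a1, the rate-limiting enzyme and a known LXR target in mice, was at 55.1 to 152 CPM in DN:HET and spread from 5.56 to 88.3 in the 7 (log2 -1.20 ± 0.47, adjusted p = 0.039). Its call was lost over 16 livers (adjusted p = 0.14), and without animal 12 it was lost when any 1 of 7 further livers was left out (DN:HET 4, 14 and 29, and DN:HOM 9, 15, 31 and 34). The 3 that rose were the basolateral exporters Slc51b (4.46-fold) and Abcc4 (3.79-fold) and the carrier Slco1a4 (1.85-fold). Of 16 apolipoprotein and assembly genes 15 fell and Apom alone rose (45.5 to 82.4 CPM in DN:HET, 109 to 136 in the 7). The 15 became 11 over 16 livers, and with library totals alone 7 without animal 12 and 5 over 16 livers. Apoa4 fell 3.44-fold, Apoa2 2.45-fold and Pltp, a phospholipid carrier and LXR target, 2.23-fold. Of 20 genes of fatty acid oxidation 14 fell without animal 12 and 10 with it (9 and 6 with library totals alone), and the 16 bile acid genes became 10 under that scaling. Among them Ppara, the nuclear receptor that governs the pathway, fell 2.33-fold. The lysoplasmalogenase genes parted: Tmem86b fell 1.90-fold and Tmem86a rose 2.43-fold.

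Markers of resident Kupffer cells were close to absent in homozygous livers and kept in heterozygous ones. In bulk tissue fewer cells of a type and less RNA per cell cannot be told apart. Of 10 listed markers 9 fell in both comparisons, and the exception was C6, a complement component that hepatocytes also make. The median log2 fold change was -6.75 without animal 12 and -3.70 with it. Clec4f, a lectin used to define these cells (chr6:83621524-83633169), was at 57.4 to 133 CPM (median 91.3) in DN:HET and at 0.195 to 0.638 in the 7 DN:HOM livers, with animal 12 at 62.1 (log2 -7.92 ± 0.30, adjusted p = 1.3e-11; -3.63, adjusted p = 0.011 over 16 livers). Cd5l, a secreted macrophage protein, was at 51.6 to 241 CPM in DN:HET and at most 0.600 in the 7. The scavenger receptor Cd163 was at 7.21 to 22.03 against at most 0.363 CPM. Timd4, which binds dying cells, was at 1.75 to 23.2 against at most 0.300. Marco was the one of these in which animal 12 also lay below every heterozygous liver (8.26 to 213 CPM in DN:HET, 0 to 0.536 in the 7, 1.82 in animal 12). The heterozygous levels lay around those of wild type for Clec4f (60.2 to 108 CPM in the 7 DN:WT livers), and Marco alone of the 10 was higher in DN:HET than DN:WT (log2 3.09, adjusted p = 0.041, without animals 10 and 12), a call that was lost without animals 4 and 22 as well (1.35, adjusted p = 0.54). Fcna, a lectin that was not in the list and was among the top falls over 16 livers, was at 23.3 to 29.2 CPM in DN:HET, 2.29 to 4.15 in the 7 and 19.7 in animal 12.

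Other macrophage genes went the opposite way. Of 20 genes of macrophages and lipid-associated macrophages 16 rose and none fell (15 over 16 livers), and their summed level was 321 to 1275 CPM in DN:HET and 1713 to 2595 in the 7 DN:HOM livers. Gpnmb, a glycoprotein of lipid-laden macrophages, was at 1.29 to 16.6 CPM (median 6.55) in DN:HET and 140 to 292 (median 180) in the 7, and at 1.12 in animal 12 (log2 4.59 ± 0.45, adjusted p = 2.8e-07; 4.41, adjusted p = 0.0003 over 16 livers). Trem2, the lipid receptor of these cells, was at 0.837 to 3.61 CPM in DN:HET and 24.7 to 37.1 in the 7 (17.2-fold, and 15.3-fold over 16 livers). Cd63, of late endosomes, rose 16.3-fold, Mmp12, an elastase, 11.3-fold, Ctsk, a lysosomal protease, 8.34-fold and Cx3cr1, a chemokine receptor of monocyte-derived cells, 6.86-fold. The 4 that did not pass were Adgre1, the F4/80 antigen, Csf1r, Ccr2 and Ly6c2. These missing calls depended on DN:HET animals 4 and 22. Without those as well, 19 of 20 were higher in DN:HOM, at a background of 30.4% of genes higher. Without animals 10 and 12, 6 of 20 were higher in DN:HET than in DN:WT, and 1 of 20, Gpnmb, without animals 4 and 22 as well, at backgrounds of 1.52% and 0.085% of genes higher (log2 2.96, adjusted p = 0.015, and 2.25, adjusted p = 0.048).

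**Figure D2:**
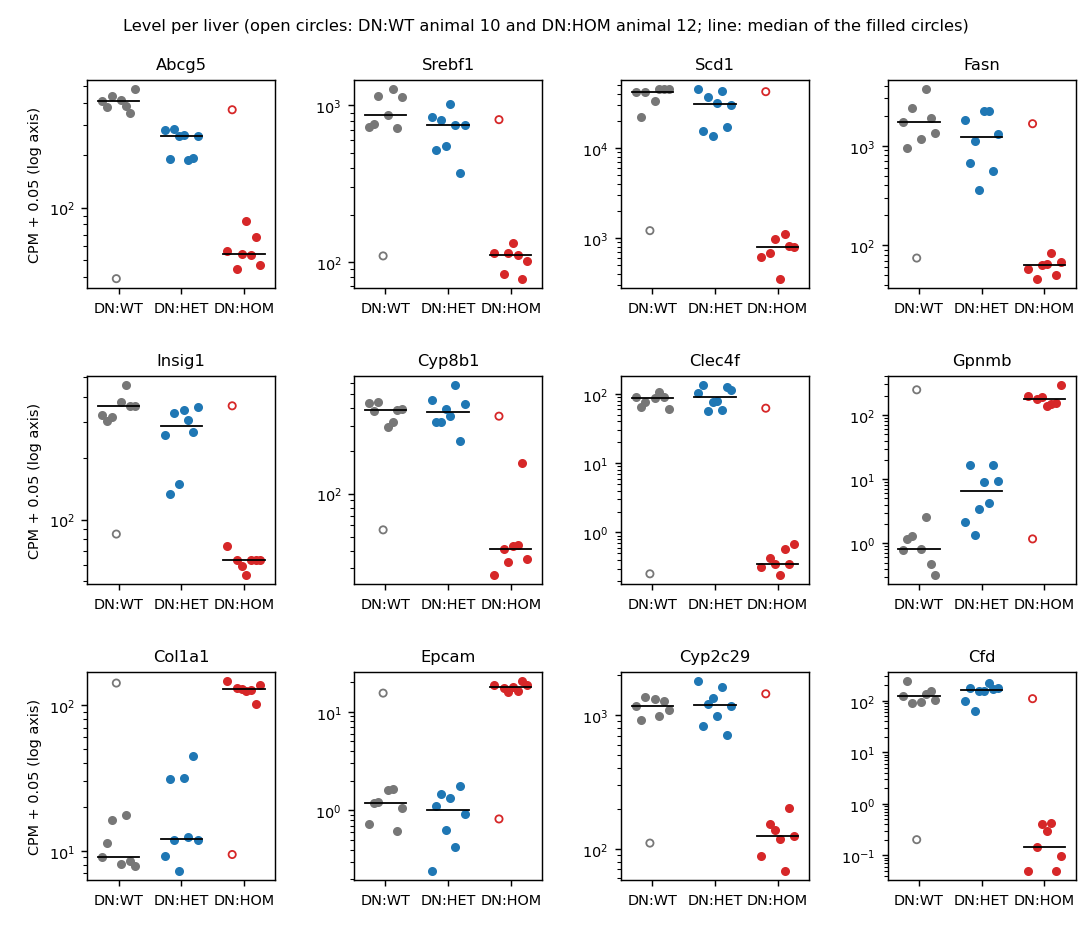
CPM plus 0.05 on a log axis in each DN:WT, DN:HET and DN:HOM liver for 12 genes, with black lines at the median of the filled circles and open circles for DN:WT animal 10 and DN:HOM animal 12. Abcg5 steps down from DN:WT through DN:HET to DN:HOM, while Scd1, Clec4f, Cyp2c29 and Cfd are near the wild-type level in DN:HET and far below it in 7 DN:HOM livers.

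Genes of stellate cells and scar matrix rose. Of 26 genes 24 were higher and none was lower with or without animal 12 (median 1.88 without it, 1.74 with it), and all 7 DN:HOM livers lay above all 8 DN:HET livers for 20 of them. Col1a1, the main fibrillar collagen, was at 7.22 to 44.8 CPM (median 12.04) in DN:HET, 102 to 145 (median 129) in the 7 DN:HOM livers and 9.37 in animal 12 (log2 2.69 ± 0.34, adjusted p = 4.9e-06). Timp1, an inhibitor of matrix breakdown, rose 12.9-fold (11.5-fold over 16 livers), the matrix proteoglycan Lum 10.4-fold, Thbs1 7.43-fold, Dpt 7.27-fold and the cross-linking enzyme Loxl1 6.62-fold. The 2 that did not pass were Acta2, the myofibroblast actin, at 1.94 to 12.1 CPM in DN:HET and 2.95 to 8.57 in the 7 (log2 0.41 ± 0.35, adjusted p = 0.34), and Lrat, the retinol-storing enzyme of quiescent stellate cells (0.07 ± 0.11, adjusted p = 0.63).

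Bile duct markers and cell cycle genes rose beside them. Of 9 tested cholangiocyte genes 8 were higher (7 of 8 over 16 livers). Epcam was at 0.194 to 1.72 CPM in DN:HET and 15.98 to 20.3 in the 7 DN:HOM livers (18.8-fold, and 16.8-fold over 16 livers), the keratins Krt7 and Krt19 rose 10.8-fold and 9.41-fold, and Cd24a rose 9.99-fold. Spp1, osteopontin, which macrophages also make, was at 25.6 to 208 CPM in DN:HET and 671 to 1009 in the 7 (11.1-fold). All 16 listed proliferation genes were higher without animal 12, and 15 with it. Ccnd1, the G1 cyclin, was at 12.2 to 43.3 CPM in DN:HET and 91.3 to 148 in the 7, Ccnb1, of mitosis, rose by 2.85 on the log2 scale and Cdk1 by 2.12. Endothelial genes were mixed, with 3 of 11 higher and 3 lower, near the shares over all genes (2 and 2 over 16 livers, and 5 and 1 with library totals alone). Cd34 rose 6.06-fold and the sinusoidal receptors Stab1 (1.73-fold) and Lyve1 rose less (the call for Lyve1 was lost when any 1 of 5 livers was left out), whereas Stab2, also of sinusoids, fell 1.59-fold, Cdh5 1.77-fold and Kdr by 0.64 on the log2 scale.

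Neutrophil genes rose and lymphocyte genes did not. Of 9 tested neutrophil genes 8 were higher without animal 12 and 5 of 7 with it. S100a8 was at 0.193 to 2.85 CPM in DN:HET and 8.86 to 30.02 in the 7 DN:HOM livers (10.2-fold). S100a9 rose 8.43-fold, whereas Csf3r did not pass (0.27 ± 0.51, adjusted p = 0.67). Ngp, a granule protein with too few reads to be tested over 16 livers, was at most 0.402 CPM in DN:HET and 1.95 to 5.83 in the 7. It entered the test only through those 7 livers, so nothing is read from its place among the 8. Of 9 tested T cell and cytotoxic genes 3 fell and none rose: Cd3e, Cd4 and Nkg7 (3 of 8 over 16 livers). With library totals alone and without animal 12 none passed in either direction. Cd4, which macrophages and dendritic cells can express as well, was at 1.29 to 8.15 CPM in DN:HET and 1.05 to 2.05 in the 7. The call for Nkg7 was lost when any 1 of 11 of the 15 livers was left out, and none of the 3 passed once DN:HET animals 4 and 22 were also left out. Of 7 tested B cell genes 3 fell in both comparisons, among them Cd79a and Pax5. Of 5 globin and erythroid genes Hba-a1, Hbb-bs and Alas2 fell without animal 12 (1 fell over 16 livers, and 1 with library totals alone). The call for Hba-a1 was lost when any 1 of 9 of the 15 livers was left out, and that for Hbb-bs without DN:HET animal 8. The summed level of the 5 was 225 to 908 CPM in DN:HET and 100.2 to 467 in the 7. The red cells' part in other results was not tested.

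Signals of innate immunity were mixed as well. Of 21 tested chemokine and receptor genes 13 rose and 3 fell. Cxcl14 was at 1.49 to 3.67 CPM in DN:HET and 24.8 to 53.1 in the 7 DN:HOM livers (14.8-fold), and Ccl2, which draws monocytes, rose 3.19-fold (adjusted p = 0.011; 0.064 over 16 livers). The 3 that fell were Cxcl9, Ccl5, whose call was lost without DN:HET animal 22, and Ccl24. Of 22 genes of the inflammasome and innate sensing 6 rose, a share near that over all genes, and 1 fell. Cd14, the coreceptor for endotoxin, was at 1.22 to 14.6 CPM in DN:HET and 31.7 to 153 in the 7 (16.1-fold), Casp4 rose 6.33-fold and Il1rn, the antagonist of the interleukin 1 receptor, 5.52-fold. Il18 fell 1.75-fold. Il1b itself was at 0.737 to 11.9 CPM in DN:HET and 3.90 to 6.42 in the 7 and did not pass (0.58 ± 0.49, adjusted p = 0.34). Without DN:HET animals 4 and 22 as well, 17 of the 22 were higher instead of 6. Over 16 livers 4 rose in this list and 8 among the chemokines.

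**Figure D3:**
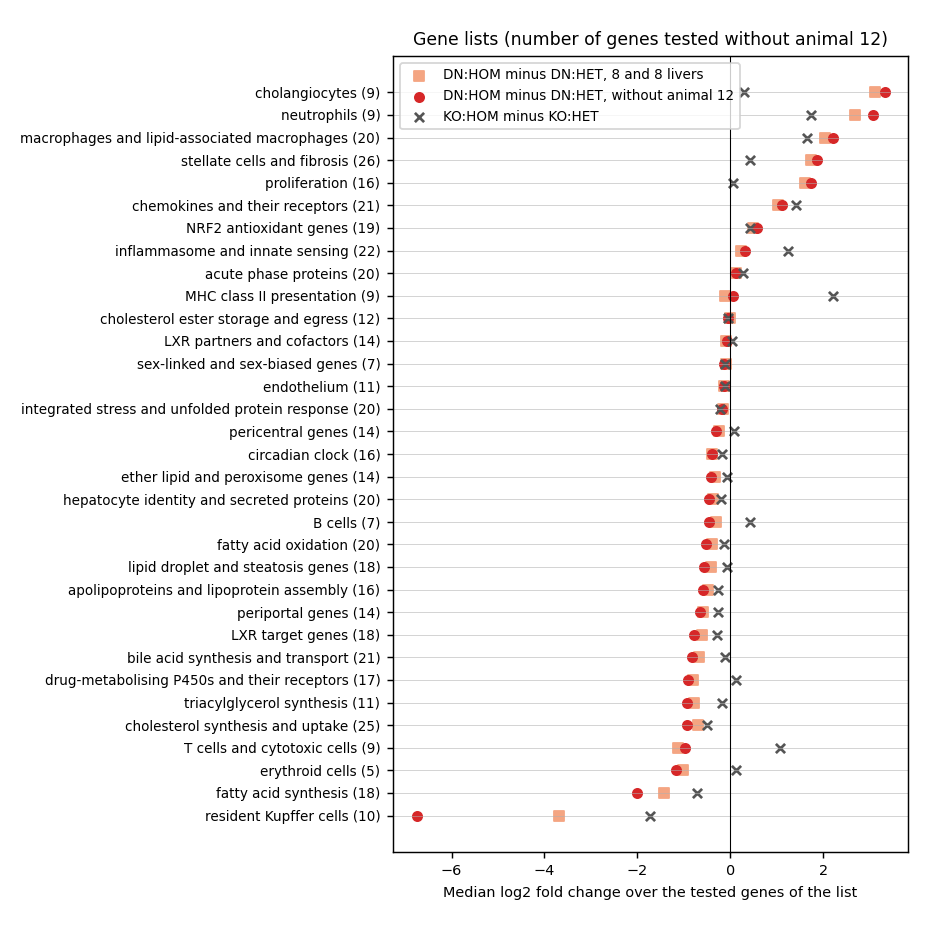
Median log2 fold change over the tested genes of each list for DN:HOM minus DN:HET with all 16 livers (squares) and without animal 12 (circles), and for KO:HOM minus KO:HET (crosses), with the number of genes tested in brackets. Resident Kupffer cell markers have the lowest median at -6.75, and MHC class II genes lie near 0 in the knock-in comparison but at 2.22 in the knockout comparison.

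Antigen presentation varied more among heterozygous livers than between the genotypes. None of 9 MHC class II genes passed in either comparison, at a background of 54.1%. Cd74, the invariant chain, was at 1079 CPM in DN:HET animal 4, 1371 in animal 22, 600 in animal 29, 221 in animal 16 and 68.2 to 116 in the other 4 DN:HET livers. In the 7 DN:HOM livers it was at 236 to 606 CPM and in animal 12 at 36.8. The homozygous range thus lay inside the heterozygous one (log2 -0.04 ± 0.60, adjusted p = 0.96). Without animals 4, 12 and 22, 7 of 9 were higher in DN:HOM, Cd74 with a log2 fold change of 1.17 (adjusted p = 0.029). Set against wild type without animals 10 and 12, 7 of 9 were higher in DN:HET, and 3 of 9 without animals 4 and 22 as well, at backgrounds of 1.52% and 0.085% of genes higher. Interferon-gamma-induced genes, a list written after values were seen, ran with the same livers. Cxcl9, a T cell chemokine, was at 457 and 413 CPM in animals 4 and 22, at 20.98 to 112 in the other 6 DN:HET livers and at 7.36 to 29.9 in the 7 DN:HOM livers. Of the 24 genes 17 were lower and 1 was higher in DN:HOM with or without animal 12, and 12 were lower once animals 4 and 22 were also left out. The one that rose was Ubd (7.88 to 131 CPM in DN:HET, 81.9 to 251 in the 7). Gbp2b, a guanylate-binding GTPase, was at 2.06 to 58.8 CPM in DN:HET and at 0 to 0.250 in the 7, the only member in which those groups did not overlap, and it was at 0 in 3 of the 7.

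**Figure D4:**
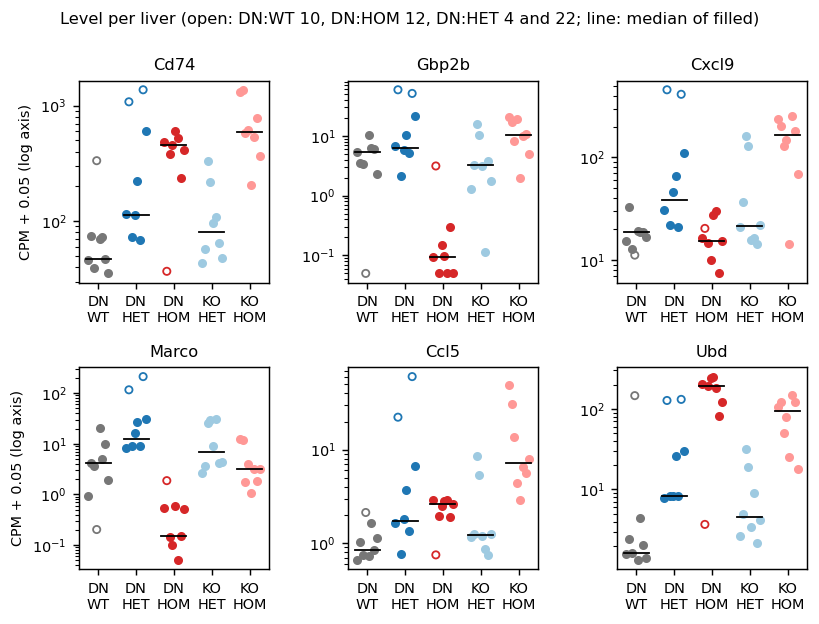
CPM plus 0.05 on a log axis in each liver of 5 groups for 6 immune genes, with black lines at the median of the filled circles and open circles for DN:WT 10, DN:HOM 12 and DN:HET 4 and 22. DN:HET animals 4 and 22 carry the highest Cd74, Cxcl9 and Marco values of the heterozygous livers, and Gbp2b is below 0.3 CPM in 7 DN:HOM livers but not in KO:HOM.

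Hepatocyte products fell unevenly. Of 20 genes of hepatocyte identity and secretion 10 fell and 1, transferrin (Trf), rose (7 and 0 over 16 livers, and 7 and 5 with library totals alone and without animal 12). Alb, albumin, was at 25806 to 50900 CPM in DN:HET and 20676 to 25179 in the 7 DN:HOM livers (1.81-fold lower, adjusted p = 0.00014; 0.051 over 16 livers). Serpina1c, an antitrypsin, fell 2.35-fold, Cps1, of the urea cycle, 2.42-fold and Ttr 1.75-fold, and the factor Hnf4a did not pass. Of 17 tested P450 and receptor genes 12 fell and 2 rose (11 and 2 over 16 livers), and the Cyp2c enzymes fell furthest: Cyp2c54 10.3-fold, Cyp2c37 9.34-fold, Cyp2c29 9.32-fold and Cyp2c50 6.09-fold. Cyp2c29 was at 711 to 1791 CPM in DN:HET, 68.2 to 201 in the 7 and 1445 in animal 12 (4.14-fold lower over 16 livers, adjusted p = 0.0078). Of pericentral genes 7 of 14 fell and of periportal genes 8 of 14, with 2 higher in each list (7 and 8 lower and 1 higher in each over 16 livers). With library totals alone and without animal 12, 6 pericentral genes were lower and 3 higher, and their median turned from -0.30 to 0.04. The periportal median stayed below 0 (-0.31). Rgn of the pericentral list fell 4.47-fold, and Hal, of histidine breakdown, of the periportal list fell 2.82-fold. Of 15 major urinary protein genes, a list also written after values were seen, 14 fell and Mup20 rose 2.24-fold (13 and 1 of 14 over 16 livers). Mup7 was at 46.6 to 594 CPM in DN:HET and 0.635 to 5.05 in the 7, and Mup1 at 9.24 to 60.9 and 0 to 1.30. These genes are near-identical copies, and reads that map to several places were left out of the counts, so levels of single members are uncertain. Cyp4a12a, a male-type P450, fell 3.73-fold.

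Of 20 acute phase genes 6 rose and 3 fell (4 and 3 over 16 livers, and 12 and 2 with library totals alone). Without animals 4, 12 and 22 the counts were 10 and 3, at backgrounds of 30.4% higher and 28.2% lower. Among the members Lcn2 was 5.87-fold and Hp 2.02-fold higher and Orm3 4.71-fold lower, and Saa3 did not pass (adjusted p = 0.10). Of 19 NRF2 target genes 12 rose and none fell (10 over 16 livers), among them Cbr3 (10.3-fold), Gstm3 (3.43-fold) and Srxn1 (log2 1.32). Of 20 genes of the unfolded protein and integrated stress responses 5 rose and 6 fell, near the shares over all genes, with Atf3 4.63-fold higher and Herpud1 1.75-fold lower. That split depended on the scaling, at 7 and 1 with library totals alone, and was 3 and 4 over 16 livers and 3 and 6 without animals 4, 12 and 22. Of 16 clock genes 9 fell and none rose (6 and none over 16 livers, and 4 fell and 1 rose with library totals alone), Cry1 and Nfil3 by 2.22-fold and 2.26-fold. The hour at which each liver was collected is not in the labels.

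By a rule on size and on groups that do not overlap without animal 12, the 12 genes named as higher were Rasal1, Gipc2, Cpe, Syngr1, Fbn2, Sprr1a, H19, Rian, Tspan8, Gm47163, Meg3 and Inava. Rasal1, Syngr1, Fbn2 and Inava had too few reads to be tested over 16 livers and were tested only without animal 12, so nothing is read from their place. The others were at 2.76 CPM or less in every DN:HET liver. Cpe, carboxypeptidase E, was at 0.228 to 1.55 CPM in DN:HET and 22.4 to 66.1 in the 7 DN:HOM livers. H19, Rian and Meg3, members of the fetal and imprinted list, are imprinted noncoding RNAs that the fetal liver expresses, and Meg3 was at 0.578 to 1.14 CPM in DN:HET, 14.03 to 44.8 in the 7 and 1.26 in animal 12. Its 8 homozygous livers thus all lay above the 8 heterozygous ones, as they did for 113 genes (0.777%). Over 16 livers the rule named Meg3, Gm31718, Fam83a, Ckap2, Gpm6a and Ano1 among higher genes, and Marco, Gm4841, Epb41l3, Rgs16, Sult5a1 and Fcna among lower ones. Animal 12 lay between the other homozygous livers and the heterozygous range in 11 of these, and within the range of the other homozygous livers for Gm4841. Ano1, a chloride channel, was at 1.05 to 1.90 CPM in DN:HET, 4.93 to 7.34 in the 7 and 2.17 in animal 12. Sult5a1 was at 14.6 to 29.03 CPM in DN:HET, 1.69 to 4.31 in the 7 and 9.30 in animal 12. Below the heterozygous range without animal 12 the top 12 were Cfd, Cd5l, Gbp2b, Clec4f, Marco, Cd163, Timd4, Mup7, Kcna2, Mup1, Gm32468 and Mup12.

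The 7 homozygous livers were not uniform. Animal 33 lay lowest of them on the first component (34.8). Its Cyp8b1 was 165 CPM against 26.99 to 44.01 in the other 6, its Alb was the highest and its Cd63, Timp1 and Cd74 (236 CPM) the lowest of the 7. Its Cyp8b1, Alb, Cd63 and Timp1 still lay outside the heterozygous ranges. Among heterozygous livers animal 14 had the lowest Scd1 (13774 CPM), and animals 4 and 22 were next (15477 and 17246).

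Reference comparisons with the other groups follow. Between DN:HET and DN:WT 0 of 15072 genes passed edgeR's test with 8 and 8 livers (814 had an unadjusted p under 0.05 and DESeq2 called 59). Without animals 10 and 12, 239 of 15151 passed (1.58%; 230 or 1.52% higher and 9 lower, DESeq2 713), and without DN:HET animals 4 and 22 as well 16 of 15296 passed (0.105%; 0.085% higher and 0.0196% lower, DESeq2 53). DN:HOM differed from DN:WT in 44.6% of 15072 genes (23.5% higher, 21.1% lower) and, without animals 10 and 12, in 60% of 15151 (32.1% higher, 27.9% lower). Between KO:HOM and KO:HET 1188 of 13909 genes passed (8.54%; 5.75% higher and 2.79% lower). The difference between the knock-in and the knockout in the step from heterozygous to homozygous was tested as an interaction over 32 livers. It passed for 2860 of 15262 genes (18.7%; 8.74% higher and 10% lower in the knock-in) with animal 12 and 4916 of 15491 (31.7%; 13.7% higher and 18% lower) without it. The colonies were kept at different institutes, so allele and colony cannot be told apart in it.

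Of the 18 LXR targets the change in the knock-in was lower than that in the knockout for 9 and higher for 2 by this test without animal 12, and for 5 and 2 with it. The 2 higher without animal 12 were Lpl and Nr1h3. Nr1h3 is the gene that the knockout lacks, so its difference was set by the design. Nr1h3 itself was at 48.2 to 65.3 CPM in KO:HET and 24.9 to 31.2 in KO:HOM (log2 -1.13, adjusted p = 1.5e-08), while the knock-in left it high (difference 0.78, adjusted p = 1.7e-08). Scd1 gave -1.43 in the knockout and differed by -3.82 (adjusted p = 5.8e-06), Srebf1 gave -0.48 and differed by -2.28 (8.0e-08), and Fasn gave -1.16 and differed by -3.24 (4.8e-05), all without animal 12. With animal 12 the difference passed for Srebf1 (-1.41, adjusted p = 0.044) but not for Scd1 (-0.88, adjusted p = 0.59) or Fasn (-1.15, adjusted p = 0.39). Abcg5 gave -1.06 in the knockout and differed by -1.0 (adjusted p = 0.00049; -0.27, adjusted p = 0.70 with animal 12). Clec4f was at 23.9 to 77.4 CPM in KO:HET and 7.71 to 39.3 in KO:HOM, so that it fell but remained detected (difference -6.69, adjusted p = 1.3e-11; -2.40, adjusted p = 0.099 with animal 12). Cd5l, by contrast, fell by 6.44 in the knockout on the log2 scale, and its difference did not pass (-1.80, adjusted p = 0.083). Cfd was at 2.78 to 138 CPM in KO:HET and 19.2 to 101 in KO:HOM (log2 -0.05, difference -9.81). Of the 25 matrix genes tested in the knockout Tgfb1 alone rose, and 19 of 26 passed the test of the difference as higher in the knock-in (13 with animal 12). Col1a1 differed by 1.76 (adjusted p = 0.023; 0.098 with animal 12). Lpl gave -0.20 in the knockout and differed by 2.01 (adjusted p = 0.0053).

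MHC class II and interferon-gamma-induced genes were compared between the alleles in the same way. Of 8 tested MHC class II genes 7 rose in the knockout, and 8 of 9 were lower in the knock-in by the test of the difference. That count rested on DN:HET animals 4 and 22: without them as well, 1 of 9 passed, and the difference for Cd74 did not (-1.45, adjusted p = 0.097). Cd74 was at 43.2 to 331 CPM in KO:HET and 206 to 1357 in KO:HOM (log2 2.59, adjusted p = 0.0056; difference -2.65, adjusted p = 0.011, and -2.82, adjusted p = 0.019 with animal 12). Gbp2b gave 1.26 in the knockout and differed by -9.47 (adjusted p = 1.6e-06). Of the 24 interferon-gamma-induced genes 22 rose in the knockout and 23 were lower in the knock-in by the test of the difference, 22 without animals 4 and 22 as well. Moxd1, Ly6i, Nos2 and Cyp2b9 had too few reads to be tested between DN:HOM and DN:HET and entered only with the knockout livers, so that nothing is read from their place among the top differences. Nos2, the inducible nitric oxide synthase, was at 0.187 to 33.9 CPM in KO:HOM and 0.100 to 0.638 in the 7 DN:HOM livers, with DN:HET animals 4 and 22 at 13 and 14.8. Toward higher values the rule named Cpe (6.10), Shc2, Tspan8, Rasal1, Gipc2 and Pak6, all low in DN:HET, and nothing is read from their order.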

How the data were processed

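RNA from 48 mouse livers was sequenced as stranded poly(A) libraries. The authors aligned reads to GRCm39 with STAR 2.5.0a (submitters' processing notes) and deposited raw read counts per gene for each liver, and the column for the gene's strand was used. Rows that name no gene (unmapped, multimapping, no feature, ambiguous) were left out of library sizes. Of 55416 gene identifiers 54749 (98.8%) were matched to symbols in GENCODE's mouse annotation.

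Differential expression was computed from the counts by edgeR (version 4.0.16, under R 4.3.3): genes were filtered by filterByExpr, scaled by TMM and tested by the quasi-likelihood F test with Benjamini-Hochberg adjustment over all genes tested, called at an adjusted p under 0.05. The 8 DN:HOM and 8 DN:HET livers were fitted alone, then without animal 12. The interaction with the knockout used those and the 16 KO:HET and KO:HOM livers. CPM values are on TMM-scaled library sizes over all 48 livers, and SE is that of the log2 fold change. Fold changes are fitted values with a prior count, so those of genes near 0 depend on it. DESeq2 1.42.0, the tool the authors used, was an alternative, beside other scalings, filters, thresholds, unstranded counts, larger fits and leaving out each liver. The fits were tested on simulated data with known fold changes. Principal components used log2 CPM with a prior count of 2.

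Named were Nr1h3, genes overlapping it, up to 6 members of each of 33 lists with the largest changes and a mean log2 CPM above 1, 22 members that define a list's role, and the genes with the largest changes whose groups do not overlap. Other genes named as exceptions, or as the few members behind a small count, were chosen after their values were seen, among them Scd2, Abcg1, Mylip, Slco1a4, Lrat, Fdps and Ccl24. The members and lists were chosen with earlier results of these data known, and 3 lists (interferon-gamma-induced, fetal and imprinted, and major urinary protein genes) were written after values were seen. The labels tie no liver to a litter, batch or to either of the 2 cohorts the study describes. Each liver is 1 animal, so p-values measure the spread between animals. Some genes of the lists are counted but not reported by name here.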

Additional observations from a re-analysis of the deposited data

Results flagged for a closer look

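Livers far from the rest of their group were sought with Dixon's test in 172 genes named in the text, in the 8 DN:HET, the 8 DN:HOM and the 7 DN:HOM livers without animal 12. Chance alone marks about 1 in 20 groups. Animal 12 stood apart from the other DN:HOM livers in 117 of the 172 genes. Many of these were named for a change measured without it, so the count only describes them. Over all 14535 genes tested with 16 livers it stood apart in 3270 (22.5%). Among the other DN:HOM livers animal 33 stood apart in 2 genes with animal 12 kept (Cd4 and Moxd1) and in 13 without it, including Alb (25179 CPM), Cyp8b1 (165 CPM), Slc51b (1.15 CPM), Cd63 (105.0 CPM) and Timp1 (6.50 CPM). Animal 18 did so in 1 gene (S100a8, 30.02 CPM) and animal 34 in 2 (Abcg1, 32.2 CPM, and Lrat, 27.8 CPM). Of the DN:HET livers animal 8 stood apart in 1 gene (Acta2, 12.1 CPM) and animal 14 in 1 (Fabp4, 5.08 CPM).

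The step from heterozygous to homozygous was followed in 12 genes for a difference between the knock-in and the knockout. All 12 passed the interaction term of edgeR's quasi-likelihood test without animal 12. They were chosen with results known, and Cfd, Gbp2b and Cpe are among the largest differences by this test. That all passed therefore lends no support. Cd5l, whose difference did not pass, is not among them. The knock-in change was lower than the knockout change, in log2 units, by -3.82 for Scd1, -2.28 for Srebf1, -1.0 for Abcg5, -1.24 for Abcg8, -3.24 for Fasn, -9.81 for Cfd, -6.69 for Clec4f, -2.65 for Cd74 and -9.47 for Gbp2b. It was higher by 2.01 for Lpl, 6.10 for Cpe and 0.78 for Nr1h3.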

How the results depend on the processing

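No paired analysis was possible because each animal number belongs to 1 liver of the knock-in colony, and a number that recurs in the knockout colony names a different mouse at another institute. Counts of genes called between DN:HOM and DN:HET stayed within 1.5 times under DESeq2, both other scalings, both other filters, unstranded counts and fits over 24 or 48 livers. Stricter thresholds lowered them. An adjusted p under 0.01 left 3904 genes over 16 livers and 6173 without animal 12 (within 1.5 times), and a log2 fold change of at least 1 left 1832, or 2571 without animal 12. The difference from the knockout passed for 1001 genes at an adjusted p under 0.01, 1227 with a difference of at least 1 and 4916 without animal 12, where the stricter limits left 3153 and 1977. Leaving out 1 liver at a time gave 5520 to 8054 calls over 16 livers, the highest without animal 12, and 7573 to 8259 from the 15. The 0 genes between DN:HET and DN:WT became 239 without animals 10 and 12, and 16 also without DN:HET animals 4 and 22, a choice made after seeing the data. Without animals 4, 12 and 22 the difference from the knockout passed for 5292 genes.

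With library size alone the log2 fold change turned to 0.01 for Nr1h3 and 0.03 for Abca1 over 16 livers, and without animal 12 to 0.03 for both and 0.29 for Acp2. Over 16 livers the list medians turned to 0.21 for LXR partners and cofactors, 0.28 for cholesterol ester storage and 0.03 for pericentral genes. Medians nearer 0 also changed sign: endothelium from -0.14 to 0.14, MHC class II from -0.11 to 0.16, stress responses from -0.15 to 0.13, and sex-linked and sex-biased genes from -0.10 to 0.19. Without animals 4, 12 and 22 Cd74 turned to 1.17 and Ly6c2 to 0.94. The cause was not tested. Over 16 livers the calls of Abca1, Abcg1, Ccl5, Cdh5, Cfd, Cry1, Fabp4, Fasn, Nkg7, Pnpla3 and Ubd were lost when some single liver was left out. Without animal 12 those of Ccl5, Cyp7a1, Hba-a1, Hbb-bs, Lyve1 and Nkg7 were. Depth limits the folds of genes near 0 in 1 group, such as Cfd and Gbp2b.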

Other observations

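Further genes of the fixed lists were not described above. Of 14 ether lipid and peroxisome genes 10 fell and 4 rose in DN:HOM without animal 12, against 7 and 3 over 16 livers and 6 and 4 with library totals alone and without animal 12. Of 12 genes of cholesterol ester storage and egress 4 fell and 2 rose without animal 12, 2 fell and 1 rose over 16 livers, and with library totals alone and without animal 12 the split was 1 and 7. Of 7 tested sex-linked and sex-biased genes 3 fell and 2 rose without animal 12, 2 and 2 over 16 livers, and 1 and 5 with library totals alone and without animal 12. Of 9 tested fetal liver and imprinted genes, a list written after values were seen, 7 rose and 1 fell (6 and 1 of 8 over 16 livers).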
